A study of Mus musculus with 12 samples.

Results

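The myelinating Schwann cell genes described here are 30 genes that peripheral myelinating glia use to build, attach and maintain the myelin sheath. They were taken as a named list, matched by gene symbol to the 55416 gene identifiers of the count tables. All 30 were found, and all 30 passed the filter on low counts that left 16384 genes for testing. The rule that lists them uses no measured value, but the list was drawn up with earlier results of these data known. The list was followed in dorsal root ganglia (DRG), which hold the cell bodies of sensory neurons, their satellite glia and stretches of myelinated and unmyelinated axon with their Schwann cells.

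A myelinating Schwann cell wraps a single segment of a large axon, and the wraps are pressed together into compact myelin except at the paranodes, the Schmidt-Lanterman incisures and the outer, abaxonal surface. Axonal neuregulin acts on the ErbB2/ErbB3 receptor pair, and with the adhesion receptor Adgrg6 this signal leads through Sox10 and Pou3f1 to Egr2 (Krox20), the transcription factor that switches on myelin protein and lipid genes. In the DRG, myelin surrounds the axons of mechanoreceptors and proprioceptors, whereas most nociceptor axons are unmyelinated and lie in Remak bundles.

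All animals were adult mice labelled C57Bl6. The 6 iKO libraries came from Rosa26Cre ERT2; Fl/Fl mice injected with tamoxifen, in which the Prdm12 gene is deleted, and the design text places tissue collection 1 month after that injection. The 6 controls were mixed. Control 1 was Rosa26Cre ERT2; Fl/+, controls 2 and 3 were +/+; Fl/+ and so carried no Cre, control 4 was Rosa26Cre ERT2; +/+, and these 4 received tamoxifen. Controls 5 and 6 were Rosa26Cre ERT2; Fl/Fl and received corn oil without tamoxifen. Of the 5 female libraries 2 were controls (1 and 2) and 3 were iKO (1 to 3), and 7 libraries were male. Rosa26 is active in most cell types, so Cre in these mice is not limited to neurons. Whether a library holds tissue of 1 animal or of several is not stated in the labels, so a p-value here reflects the spread among these libraries, which may be technical.

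Total counts ran from 13943784 to 20377766 per library. Prdm12 itself was at 107 to 147 CPM (counts scaled to a common library size) in controls 1 to 5. It was at 64.6 CPM in corn-oil control 6 and at 18.6 to 25.4 CPM in iKO. The log2 fold change for iKO against control was -2.33 ± 0.18 SE (adjusted p = 8.59e-05, edgeR's quasi-likelihood test). That test, Benjamini-Hochberg adjusted over all genes tested, gives every adjusted p below unless another tool is named. General sensory neuron markers, 14 genes, summed to 11799 to 13303 CPM in controls and 10526 to 13836 CPM in iKO. Markers of oligodendrocytes, the myelinating cells of the spinal cord and brain, were in part near the floor. Of these 12 genes 7 averaged under 1 CPM, with Mog at 0.0597 to 0.74 CPM and Opalin at 0.123 CPM or less, although 0 of the 12 were at 0 in every library. Mobp reached 2.25 to 16.3 CPM, and the whole oligodendrocyte list summed to 59.7 to 90.3 CPM in controls and 62.4 to 96.8 CPM in iKO. Most of that sum came from markers of the list other than Mog, Opalin and Mobp. The 30 Schwann cell genes summed to 4714 to 5796 CPM in controls and 5198 to 6908 CPM in iKO.

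Levels compared between genes are given per length, as CPM per kb of exon averaged over the 12 libraries. On that scale Pmp22, a tetraspan protein of compact myelin, was the highest at 673, followed by the calcium-binding protein gene S100b at 376 and by Mbp, which encodes the basic protein that holds the cytoplasmic faces of the wraps together, at 144. A gap then led to Mal (51.0), Prx (49.3) and Cadm4 (48.7), whose values overlapped between libraries. The lowest members were Adgrg6 (2.29), Erbb2 (2.21) and Pou3f1 (0.733), a receptor of the G protein-coupled kind, a receptor kinase and a transcription factor. S100b is also expressed by satellite glia, so its level is not that of myelinating cells alone.

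**Figure D1:**
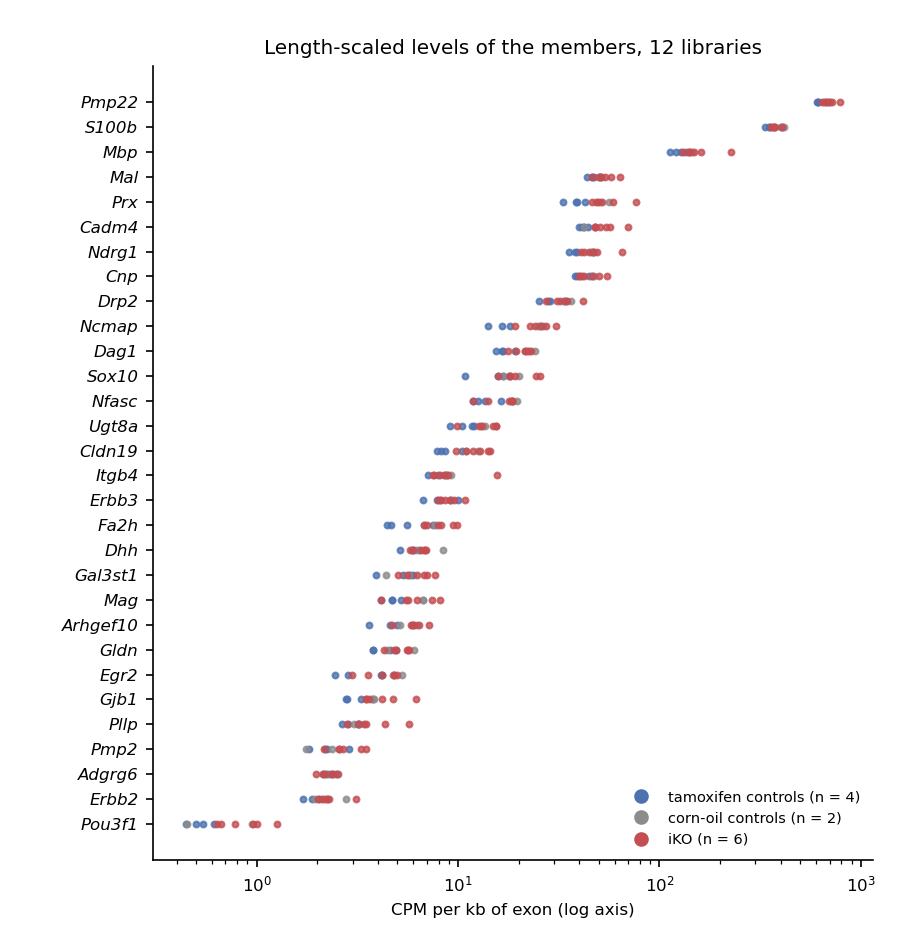
Level of each of the 30 genes in each of 12 libraries, as CPM per kb of exon on a log axis, with tamoxifen-injected controls in blue, corn-oil controls in grey and iKO in red. The order runs from Pmp22 at a mean of 673 to Pou3f1 at 0.733, and the spread between libraries of 1 gene is small beside the range between genes.

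The start regions of 5 members are shown because Cadm4, Cldn19 and Prx gave the 3 lowest adjusted p-values against tamoxifen-injected controls, and because Gjb1 and Mag carry both letter strings marked in capitals. The sequences are the 250 bases before an annotated RefSeq start on the GRCm38.p6 build, written 5′ to 3′ on the gene's strand. Capitals mark ACAAAG, a core recognised by SOX factors such as Sox10, and GTGGGNG, a core recognised by EGR factors such as Egr2, each on either strand.
Cadm4 chr7:24481773-24482022, plus strand: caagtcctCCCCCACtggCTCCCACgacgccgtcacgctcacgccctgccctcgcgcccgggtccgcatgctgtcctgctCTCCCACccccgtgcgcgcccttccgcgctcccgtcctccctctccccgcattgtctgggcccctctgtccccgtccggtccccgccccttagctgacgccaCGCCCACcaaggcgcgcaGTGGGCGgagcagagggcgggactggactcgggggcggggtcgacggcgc
Cldn19 chr4:119255191-119255440, plus strand: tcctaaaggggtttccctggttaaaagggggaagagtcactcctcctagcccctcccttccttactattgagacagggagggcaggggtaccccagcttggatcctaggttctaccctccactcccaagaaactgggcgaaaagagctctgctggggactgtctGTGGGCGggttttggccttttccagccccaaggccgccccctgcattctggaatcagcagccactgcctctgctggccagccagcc
Prx chr7:27499074-27499323, plus strand: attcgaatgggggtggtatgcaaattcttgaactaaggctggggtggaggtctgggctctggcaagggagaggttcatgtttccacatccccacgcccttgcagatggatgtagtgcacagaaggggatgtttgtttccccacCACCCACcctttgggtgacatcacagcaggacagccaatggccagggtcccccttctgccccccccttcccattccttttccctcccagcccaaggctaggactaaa
Gjb1 chrX:101383482-101383731, plus strand: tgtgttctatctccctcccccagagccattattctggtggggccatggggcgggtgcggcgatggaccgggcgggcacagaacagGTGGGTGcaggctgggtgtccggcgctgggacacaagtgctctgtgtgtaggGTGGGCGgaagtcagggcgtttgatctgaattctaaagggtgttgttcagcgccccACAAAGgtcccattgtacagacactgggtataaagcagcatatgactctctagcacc
Mag chr7:30914864-30915113, minus strand: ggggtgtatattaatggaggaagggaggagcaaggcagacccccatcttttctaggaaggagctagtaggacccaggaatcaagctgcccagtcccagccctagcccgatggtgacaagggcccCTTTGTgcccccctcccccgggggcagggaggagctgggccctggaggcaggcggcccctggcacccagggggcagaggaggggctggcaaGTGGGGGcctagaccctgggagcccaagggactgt
The Cadm4 region held GTGGGNG at 5 places and no ACAAAG, the Gjb1 region held GTGGGNG at 2 places and ACAAAG at 1, and the Mag region held each once.

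RefSeq start regions were at hand for 20 of the 30 members, with 38 starts in all, and 10 members had none in that table. GTGGGNG was present at 16 of the 38 member starts (42.1%) and at 28.1% of all 32851 starts. ACAAAG was present at 5 of 38 (13.2%), in Cnp, Gjb1 and Mag, and at 16.5% of all starts. GGAATG, a core recognised by TEAD factors, which act in the Hippo pathway, is not marked above. It was present at 9 of 38 (23.7%) and at 12.6% of all starts. These strings were settled after matches of related strings in the members had been seen, starts of a gene overlap, and a match is a run of letters and not a bound site, so the shares are descriptions of these windows.

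Comparison of iKO with control asks whether deleting Prdm12 in the adult is accompanied by other levels of the genes that make and maintain myelin. Of the 30 members 0 passed the test at an adjusted p under 0.05, where 0.946% of all genes tested did. Their fold changes leaned to the positive side, with 28 of 30 above 0 (50% of all genes) and a median log2 fold change of 0.20 (0.000 over all genes). At an unadjusted p under 0.05, 7 of 30 were higher in iKO, compared with 5.33% of all genes, and 0 were lower (4.18% of all genes). DESeq2 called 1 member, Cadm4, among 294 genes, and limma-voom 0 members among 151. For 0 of the 30 did every iKO library lie above every control, an ordering that 0.879% of all genes showed. In whole-tissue RNA a change in the number of Schwann cells and a change in RNA per Schwann cell cannot be told apart.

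**Figure D2:**
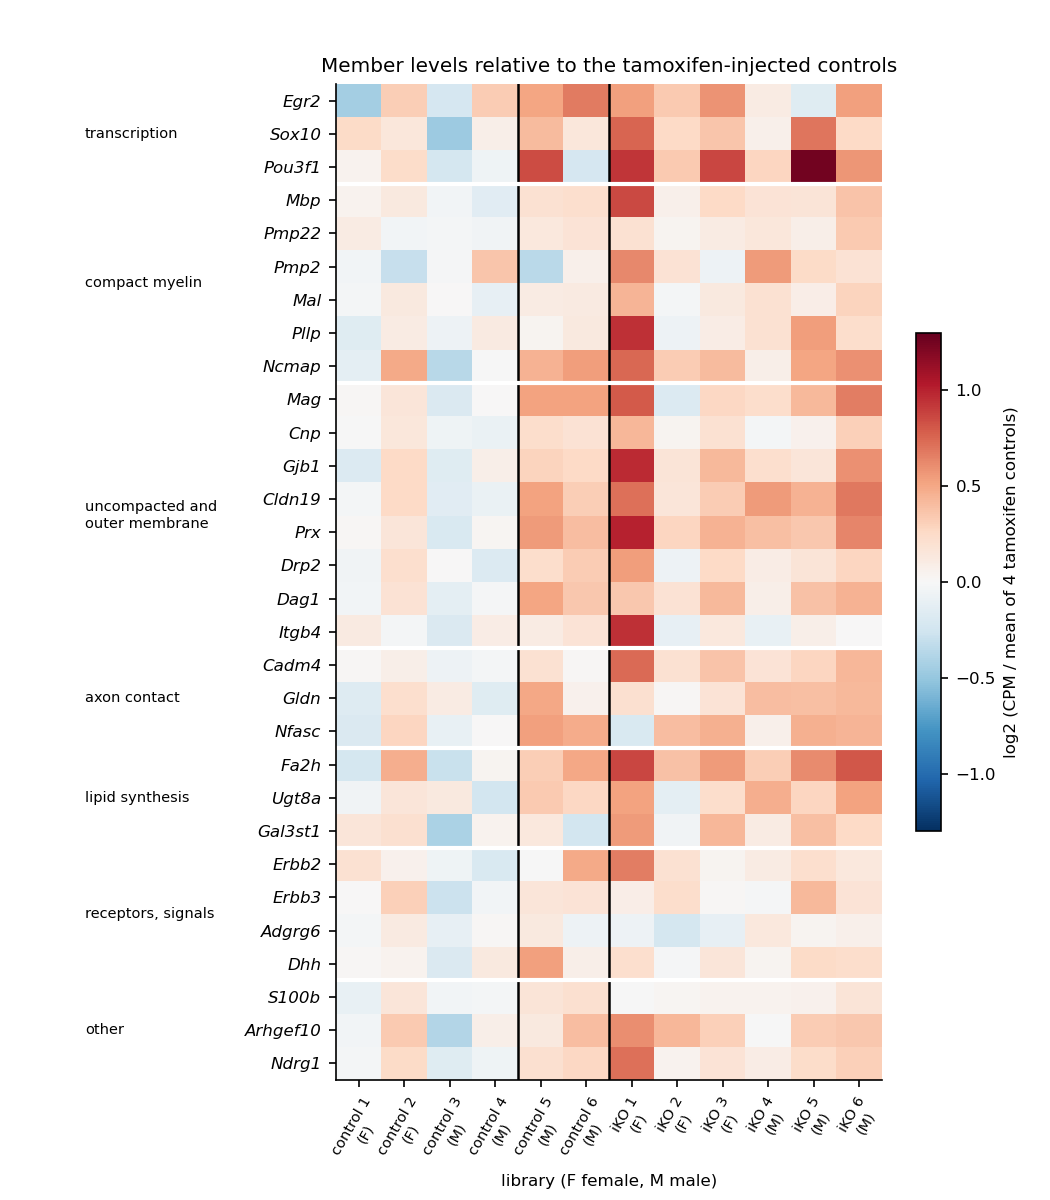
Level of each member (rows, grouped by role) in each library (columns) as log2 of its CPM over the mean of the 4 tamoxifen-injected controls, with red above and blue below that mean. Vertical lines part tamoxifen-injected controls, corn-oil controls and iKO, and the medians were -0.14 to 0.16 in controls 1 to 4, 0.23 and 0.21 in the corn-oil controls, and 0.62, 0.11, 0.26, 0.12, 0.28 and 0.35 in iKO 1 to 6.

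Among the transcription factors, Sox10, which specifies the Schwann cell lineage and keeps it myelinating, ran from 33.2 to 61 CPM in controls (median 50.8) and from 48.1 to 77.8 CPM in iKO (median 57). The groups overlapped, with 2 iKO libraries above the highest control, at 0.29 ± 0.15 SE on the log2 scale (adjusted p = 0.561). Egr2, the switch for myelin genes, ran from 8.3 to 18 CPM in controls (median 14.1) and from 10.1 to 16.9 CPM in iKO (median 15.3), so the iKO values lay inside the control range. Its log2 fold change was 0.10 ± 0.20 SE (adjusted p = 0.899), and it turned to -0.06 without control 1, the library with the lowest Egr2 level. Pou3f1 (Oct6), which acts in promyelinating cells before Egr2, was the least expressed member, at 1.71 to 3.63 CPM in controls (median 2) and 2.45 to 4.85 CPM in iKO (median 3.35). Its log2 fold change of 0.61 ± 0.22 SE was the largest of the 30 but did not pass the test (adjusted p = 0.366).

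The 6 genes grouped as compact myelin, with Ncmap of noncompact myelin set among them, all had positive fold changes, with a median of 0.25 on the log2 scale. Mbp ran from 955 to 1229 CPM in controls (median 1121) and from 1105 to 1912 CPM in iKO (median 1224). The iKO 1 library alone made up the top, since the next highest, iKO 6, was at 1366 CPM, and the fold change on the log2 scale was 0.24 ± 0.12 SE (adjusted p = 0.545). Pmp22, whose dosage causes inherited neuropathy when altered, ran from 1430 to 1663 CPM in controls (median 1511) and from 1506 to 1863 CPM in iKO (median 1608). Those groups overlapped over most of their range, with a log2 fold change of 0.11 ± 0.07 SE (adjusted p = 0.654). Pmp2, a fatty acid-binding protein of the myelin membrane, had the smallest p of the 6, at 2.47 to 4.07 CPM in controls (median 3.11) and 3.04 to 4.92 CPM in iKO (median 3.7, log2 fold change 0.36 ± 0.16 SE, adjusted p = 0.498). On an older annotation 86.9% of the exon bases of Pmp2 are shared with Gm37389, a gene model on the same strand that was at 0 CPM here, so the split of reads between them is uncertain. The lipid raft proteins Mal (log2 fold change 0.15) and Pllp (0.34) and Ncmap (0.25) had adjusted p-values of 0.526 to 0.681. For Pllp, 54.2% of exon bases overlap Gm45767 on the other strand, which these unstranded libraries cannot part.

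The genes of uncompacted myelin and of the outer surface numbered 8, all with positive fold changes and a median of 0.20. Cldn19, the claudin of Schwann cell tight junctions, ran from 33.6 to 53.5 CPM in controls (median 40.6) and from 41.6 to 61.2 CPM in iKO (median 52.7). All 6 iKO libraries were above the control median and 3 above the highest control (0.35 ± 0.13 SE on the log2 scale, adjusted p = 0.355). Prx (periaxin), the scaffold that ties the outer membrane to dystroglycan, ran from 186 to 312 CPM in controls (median 227) and from 259 to 425 CPM in iKO (median 284). Again all 6 iKO libraries exceeded the control median, and the corn-oil controls were the 2 highest controls (log2 fold change 0.35 ± 0.15 SE, adjusted p = 0.470). Mag, the adhesion protein of the inner wrap facing the axon, ran from 16.8 to 27.4 CPM in controls (median 20.2) and from 16.9 to 33 CPM in iKO (median 24.1), and the groups overlapped almost completely at the low end (0.23 ± 0.17 SE, adjusted p = 0.707).

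None of the other 5 of that group passed the test. Gjb1 (connexin 32), the gap junction channel between wraps, had a log2 fold change of 0.33 ± 0.16 SE (adjusted p = 0.527). Dag1, the laminin receptor dystroglycan, was at 0.17 ± 0.11 SE, its partner Drp2 at 0.11 ± 0.11 SE and the cytoplasmic enzyme Cnp at 0.09 ± 0.09 SE, with adjusted p-values of 0.656 to 0.779. Itgb4, the laminin-binding integrin subunit β4, was at 0.11 ± 0.16 SE (adjusted p = 0.866), and its iKO range of 52.9 to 110 CPM was set at the top by iKO 1 alone.

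Of the genes at the contact with the axon, Cadm4 had the smallest p of all 30 members. It encodes the Schwann cell adhesion protein that binds axonal Cadm partners along the internode. Its controls were at 91.5, 95.4, 86.4, 89.1, 104 and 91.6 CPM and its iKO libraries at 151, 104, 117, 103, 110 and 123 CPM. Of the 6 iKO libraries 5 lay above the highest control, control 5, though iKO 2 and control 5 both round to 104 CPM. The iKO 4 library lay just under control 5. Cadm4 averaged 92.9 ± 6.04 CPM in controls and 118 ± 18 CPM in iKO (SD, n = 6 each), a log2 fold change of 0.33 ± 0.09 SE with a 95% interval of 0.14 to 0.51 (adjusted p = 0.131). Without iKO 1 the fold change was smaller, 0.26, and passed the test (adjusted p = 0.0381), where 364 genes did against 155 with all libraries, and DESeq2 called it with all libraries (adjusted p = 0.032). The nodal proteins Gldn (gliomedin, 0.19 ± 0.10 SE) and Nfasc (neurofascin, 0.12 ± 0.15 SE) had adjusted p-values of 0.574 and 0.833. Nfasc is also made by neurons, and iKO 1, highest for most members, was lowest for Nfasc at 167 CPM.

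The 3 enzymes of myelin lipids all had positive fold changes, with a median of 0.28. Fa2h, which makes 2-hydroxy fatty acids for galactolipids, ran from 13.3 to 23.1 CPM in controls (median 18.5) and from 20.3 to 29.8 CPM in iKO (median 24.3). All 6 iKO libraries lay above the control median and 4 above the highest control, with a log2 fold change of 0.43 ± 0.15 SE (adjusted p = 0.351). Ugt8a, the galactosylceramide synthase, was at 0.24 ± 0.12 SE (adjusted p = 0.532) and Gal3st1, which adds sulfate to make sulfatide, at 0.28 ± 0.12 SE (adjusted p = 0.486).

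The receptors and signals had the smallest differences, with a median log2 fold change of 0.07. Erbb2, the kinase partner in the neuregulin receptor, ran from 8.89 to 14.4 CPM in controls (median 10.4) and from 10.5 to 16.2 CPM in iKO (median 11.5), with iKO 1 at the top (0.12 ± 0.13 SE, adjusted p = 0.802). Its ligand-binding partner Erbb3 was at 0.09 ± 0.10 SE, the hedgehog ligand Dhh, which signals to the perineurium, at 0.05 ± 0.10 SE and Adgrg6 at -0.02 ± 0.07 SE. For Adgrg6 the 95% interval of the log2 fold change was -0.17 to 0.12.

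Of the other 3 members, Arhgef10, a guanine nucleotide exchange factor tied to slowed nerve conduction, ran from 33.3 to 57.5 CPM in controls (median 46.8) and from 43.2 to 66.1 CPM in iKO (median 55.1). The groups overlapped (0.21 ± 0.12 SE, adjusted p = 0.620). Ndrg1, mutated in a demyelinating neuropathy, was at 0.18 ± 0.11 SE (adjusted p = 0.648). S100b averaged 560 ± 50 CPM in controls and 556 ± 24.2 CPM in iKO (SD, n = 6 each), and its 95% interval of -0.14 to 0.14 was among the narrowest of the 30.

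**Figure D3:**
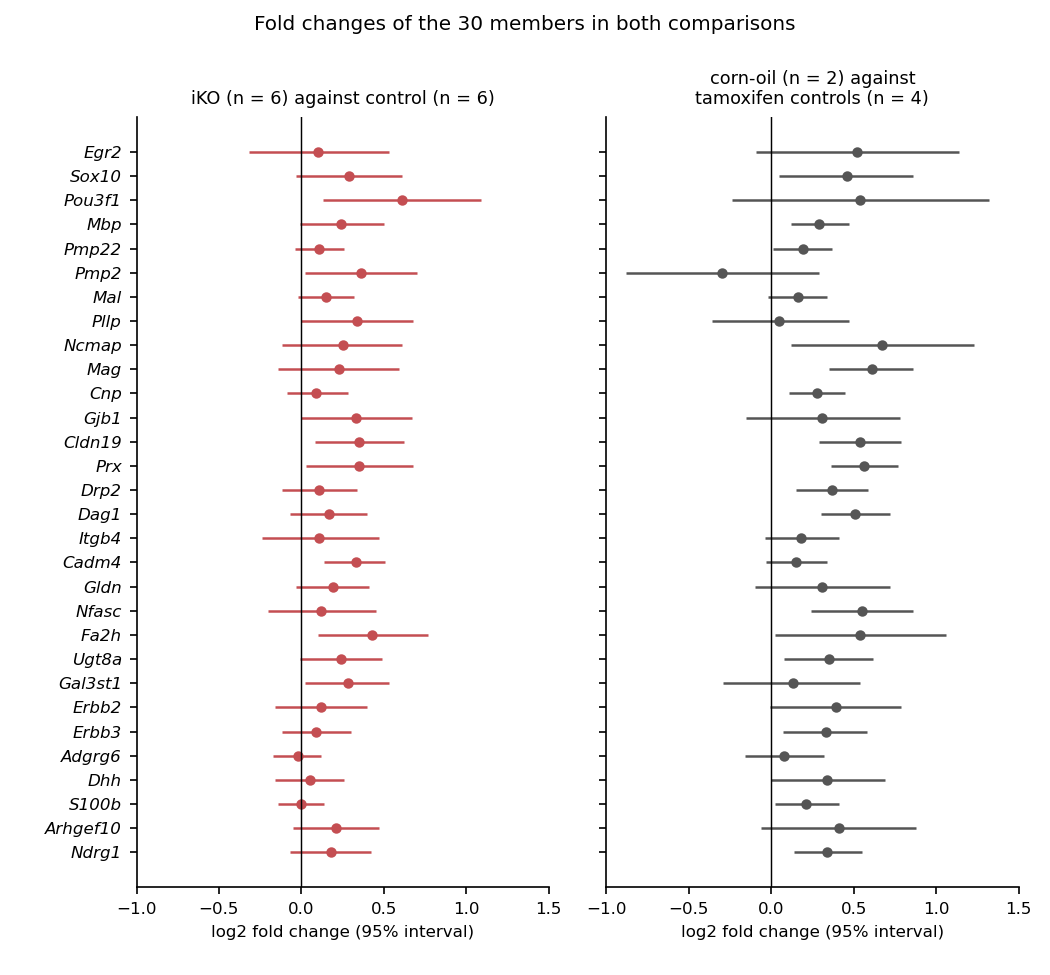
Log2 fold change with its 95% interval for each of the 30 members, for iKO against control on the left and for corn-oil against tamoxifen-injected controls on the right. On the left 28 of 30 points and on the right 29 of 30 lie above 0, and the largest on the left is Pou3f1 at 0.61.

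The comparison of corn-oil with tamoxifen-injected controls asks whether the controls themselves are alike. Here too 0 members passed the test, as did 0% of the 16791 genes tested, with 1237 genes higher and 1003 lower at an unadjusted p under 0.05. DESeq2 called 7 members among 193 genes, and limma-voom 0 of any gene. Fold changes of the members were positive for 29 of 30 (49.9% of all genes), with a median of 0.34 on the log2 scale (-0.001 over all genes). At an unadjusted p under 0.05 corn-oil controls were higher for 16 members, against 7.37% of all genes, and lower for 0, against 5.97%. For 13 of 30 members both corn-oil controls lay above all 4 tamoxifen-injected controls, an order shown by 12.9% of all genes. Corn oil, the Fl/Fl genotype with Cre, and the later sample numbers carried by the deposited tables (14 and 15 against 1 to 8) fall on the same 2 libraries and cannot be told apart. Both corn-oil controls were male, and sex was a term of the fit.

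Prx had the smallest p of this comparison. It was at 215, 237, 186 and 217 CPM in tamoxifen-injected controls 1 to 4 and at 312 and 282 CPM in corn-oil controls 5 and 6, which lay above all 4. On the log2 scale corn oil was higher by 0.56 ± 0.09 SE (adjusted p = 0.169). Mag was at 19.2, 21.3, 16.8 and 19.2 CPM against 27.4 and 27.3 CPM, the same order, with a log2 fold change of 0.61 ± 0.12 SE (adjusted p = 0.169).

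Among the other members the values of this fit ran from Ncmap at 0.67 ± 0.22 SE (adjusted p = 0.319) down to Pmp2 at -0.30 ± 0.27 SE (adjusted p = 0.650). Pmp2 was the only negative one in the fit against controls 3 and 4. By mean CPM over all 4 tamoxifen-injected controls, Gal3st1 was lower with corn oil too, at 10.3 against 10.7 CPM. Mbp was at 1087, 1154, 1030 and 955 CPM with tamoxifen and at 1206 and 1229 CPM with corn oil, again without overlap (0.29 ± 0.08 SE, adjusted p = 0.217). Egr2 was at 8.3, 14.1, 9.68 and 14.2 CPM against 16.1 and 18 CPM, so the corn-oil controls were the highest here as well (0.52 ± 0.26 SE, adjusted p = 0.436). Sox10 was at 54.7, 50.8, 33.2 and 48.4 CPM against 61 and 50.8 CPM and did overlap (0.46 ± 0.17 SE, adjusted p = 0.331). By role, the median was 0.52 for transcription factors, 0.44 for uncompacted and outer-surface proteins, 0.35 for lipid enzymes and 0.17 for compact myelin.

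Genes of large-diameter sensory neurons, whose axons are the myelinated ones, leaned to the same side among the controls. All 12 of that list had positive fold changes for corn oil against tamoxifen (49.9% of all genes), with a median of 0.35. Their summed level was 9675 to 11051 CPM in corn-oil and 6416 to 8824 CPM in tamoxifen-injected controls. For iKO against control 8 of the 12 were positive, and their median was 0.04, beside 0.20 for the members. Against tamoxifen-injected controls their iKO median was 0.15 (members 0.30), and against corn-oil controls -0.16 (members -0.02). For corn oil against tamoxifen the 14 general sensory neuron markers had a median of -0.01 and the 14 markers of nonmyelinating Schwann cells 0.07. Markers of skeletal muscle had a median of 1.63, with a summed 554 CPM in corn-oil control 6, and those of red blood cells 0.58. The part of these tissues in the members' values was not tested.

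**Figure D4:**
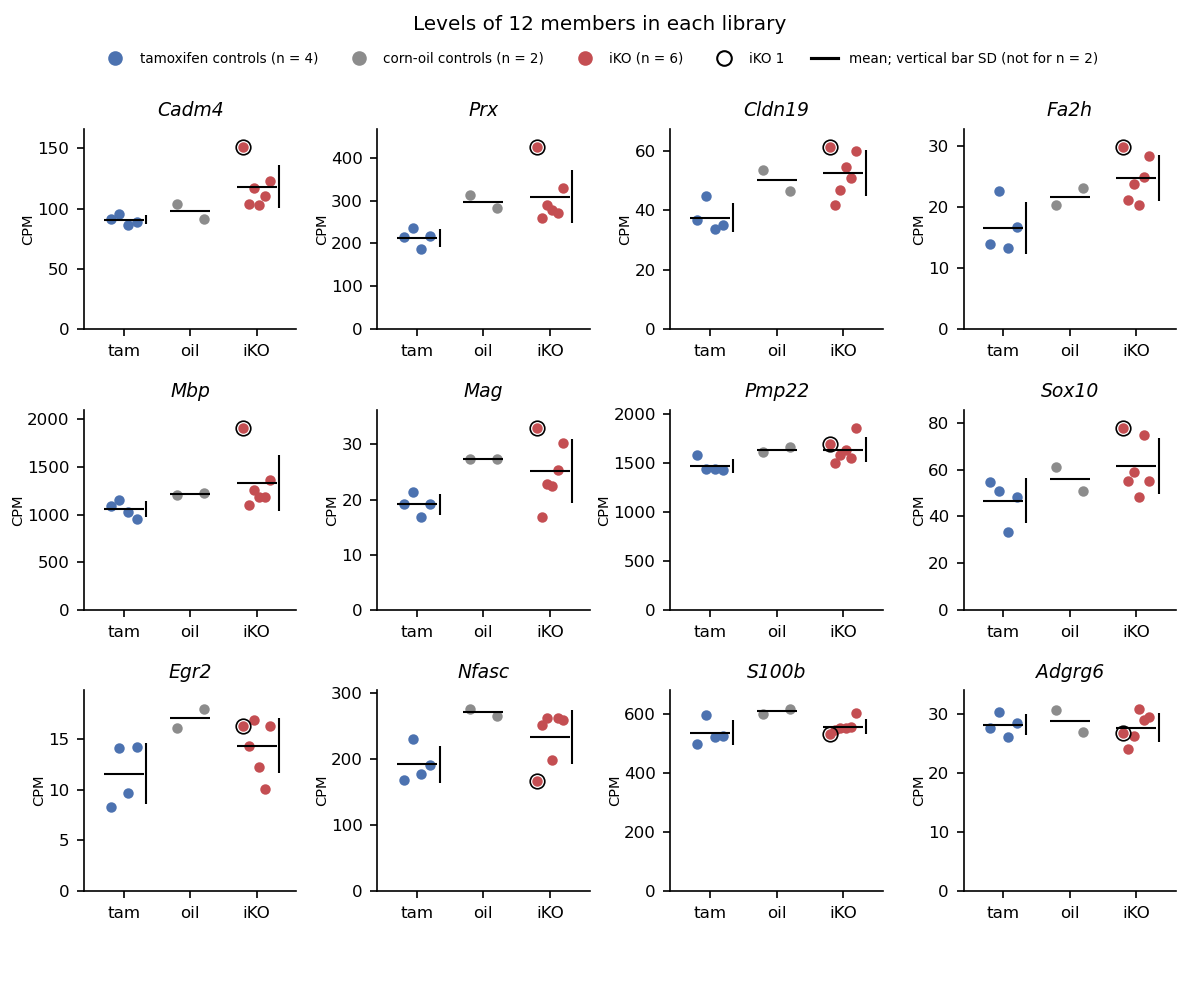
CPM of 12 members in each library, by tamoxifen-injected control, corn-oil control and iKO, with the mean as a horizontal line, the SD as a vertical bar and iKO 1 circled. For Prx, Mag, Mbp and Egr2 both corn-oil controls lie above the 4 tamoxifen-injected controls, and for Cadm4 they lie nearer to them.

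Taking the control kinds apart, 0 members passed the test for iKO against the 4 tamoxifen-injected controls, where 1.35% of all genes did. The fold change was positive for 29 of 30 (50.2% of all genes), the median was 0.30, and 16 of 30 were higher at an unadjusted p under 0.05 (9.46% of all genes). The members nearest the threshold were Prx at 0.53 ± 0.12 SE (adjusted p = 0.0582), Cldn19 at 0.49 ± 0.12 SE (0.0637), Cadm4 at 0.38 ± 0.09 SE (0.0667), Dag1 at 0.32 ± 0.08 SE (0.0859) and Fa2h at 0.58 ± 0.15 SE (0.0878). For Prx, Cadm4 and Pou3f1 every iKO library lay above every tamoxifen-injected control, an order that 2.55% of all genes showed. This comparison depended on single libraries: without iKO 1, 5 members passed (Cldn19, Prx, Dag1, Cadm4 and Nfasc), among 1459 of 16454 genes, against 222 of 16384 with all libraries. Without iKO 2, 3 members passed among 169 genes, without control 2, 2 among 177, and without iKO 4, 1 among 469. With all libraries DESeq2 called 6 of the 30 members among 587 of 16384 genes, and limma-voom 0 among 208.

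Against the 2 corn-oil controls, which share the iKO genotype, the members were spread around 0. There 0 of 30 passed the test (0.146% of all genes did), 14 of 30 were positive (49.9% of all genes), 0 were higher or lower at an unadjusted p under 0.05 (2.75% of all genes were higher and 2.55% lower), and the median was -0.02. Prx was at -0.02 ± 0.16 SE with a 95% interval of -0.38 to 0.33, and Cadm4 at 0.21 ± 0.13 SE with an interval of -0.07 to 0.48. The smallest p belonged to Pmp2, at 0.52 ± 0.25 SE (adjusted p = 0.966). With 2 libraries on the control side the standard errors of the members were larger than against the other controls. The 3 comparisons share iKO or control libraries, so they are not independent of one another.

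The sample numbers in the deposited tables fall into 2 series, 1 to 8 (controls 1 to 4, iKO 1 to 4) and 14 to 17 (controls 5 and 6, iKO 5 and 6), and the labels do not say what separates them. Within numbers 1 to 8 the median log2 fold change of the members for iKO against control was 0.24, and within numbers 14 to 17 it was 0.07, with 0 members passing in either. Among iKO libraries alone, numbers 16 and 17 are both male, and iKO 4 is the only male of numbers 2 to 7. With sex as a term the fold change therefore sets iKO 5 and 6 against iKO 4 alone. It was positive for 25 of 30 members (49.4% of all genes), with a median of 0.17. Without the sex term, against all of numbers 2 to 7, the median was 0.07 (-0.011 over all genes). Leaving out iKO 1 from the fit with sex gave a median of 0.18, again against iKO 4 alone. With 1 library on that side, a difference between the number series cannot be told from that library's own level.

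Single libraries stood out among the members. The iKO 1 library was the highest of the 12 for 19 members and control 3 the lowest for 15. Relative to the mean of the tamoxifen-injected controls, the median member was at 0.62 on the log2 scale in iKO 1 and at 0.11, 0.26, 0.12, 0.28 and 0.35 in iKO 2 to 6. The controls were at -0.02, 0.16, -0.14, -0.01, 0.23 and 0.21. Within groups, with controls of both kinds taken as 1 group, the members varied more than most genes. Their median SD was 0.24 on the log2 scale (from 0.10 for S100b to 0.39 for Pou3f1) against 0.17 for all genes tested. That SD includes the difference between the control kinds and the values of iKO 1. Without both iKO 1 and control 3 the median log2 fold change for iKO against control was 0.10 and 0 members passed.

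The iKO 1 library also had the highest levels of connective, immune and vascular cell markers. A list's score in a library averages, over its genes, the log2 CPM minus the gene's own average in the 12 libraries. In iKO 1 this score was 1.24 for fibroblasts, 1.13 for macrophages, 0.89 for endothelium, -0.29 for sensory neurons and -0.40 for large-diameter neurons. In the other 11 libraries the fibroblast score ran from -0.47 to 0.30, the macrophage score from -0.36 to 0.33 and the endothelium score from -0.28 to 0.14. Summed levels in iKO were 1456 to 4103 CPM for the 10 fibroblast genes, 252 to 754 CPM for the 12 macrophage genes and 161 to 412 CPM for the 10 endothelial genes, with 0 of any list at 0 in all libraries. In controls they were 1509 to 2237, 276 to 440 and 197 to 223 CPM. The member score was 0.36 in iKO 1 and -0.08 to 0.18 in the other iKO libraries. The part of these cells in the member values was not tested.

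**Figure D5:**
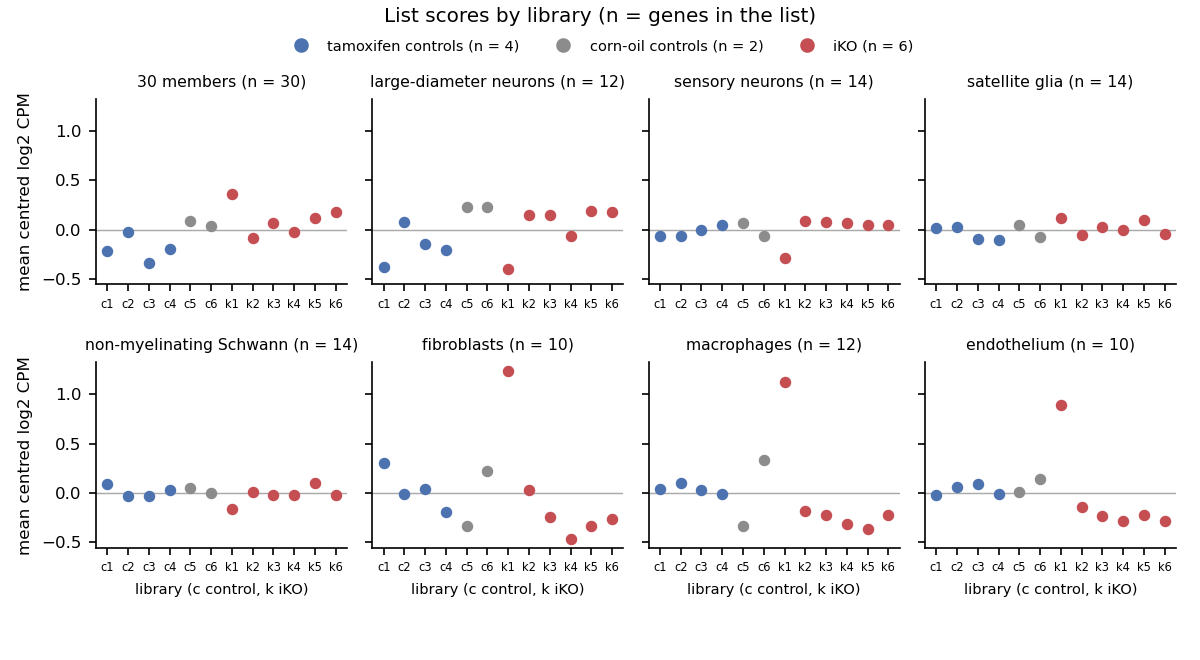
Score of the 30 members and of 7 other marker lists in each library, as mean centred log2 CPM, with controls as c1 to c6 and iKO as k1 to k6. The iKO 1 library stands at 1.24 for fibroblasts, 1.13 for macrophages and 0.89 for endothelium, and large-diameter neuron scores of the corn-oil controls (0.23 each) lie above those of the tamoxifen-injected controls (-0.38 to 0.08).

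The sexes were compared over all 12 libraries. In males against females 13 of 30 fold changes were positive (49.6% of all genes), the median was -0.01 and 0 members passed the test (0.0549% of all genes did), with a smallest adjusted p of 0.904. For the interaction of sex and group 0 members passed (0% of all genes), 11 of 30 were positive (47.5% of all genes) and the median was -0.09. Both medians changed sign without iKO 1, a female library. They were then 0.06 for sex (0.006 over all genes) and 0.09 for the interaction (-0.005 over all genes), with 0 members passing. Other single omissions turned them positive too. The sex median was 0.04 without control 2, 0.03 without control 3 and 0.03 without iKO 4, and the interaction median was 0.01 without control 1. Both corn-oil controls were male, and the control kind was not a term of these fits.

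The wider machinery around these genes was followed in 8 further lists. Of 12 other myelin genes 0 were called against all controls. Their median log2 fold change was 0.04 against all controls and 0.19 for corn oil against tamoxifen.

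Among 21 regulators of myelination 1 rose and 0 fell, where 0.946% of all genes were called either way. Nab1, a corepressor that binds Egr2 and is needed with Nab2 for myelination, ran from 38.7 to 45.2 CPM in controls and from 52.1 to 58.7 CPM in iKO, so the groups did not overlap. It averaged 42.8 ± 2.28 CPM and 55.6 ± 2.25 CPM (SD, n = 6 each), a log2 fold change of 0.37 ± 0.05 SE (adjusted p = 0.00216). Against tamoxifen-injected controls Nab1 was at 0.35 ± 0.06 SE (adjusted p = 0.00657) and against corn-oil controls at 0.43 ± 0.08 SE (adjusted p = 0.0554). Nab1 is expressed in many cell types, and which cells carried the difference was not tested.

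Of 17 tested genes of the repair Schwann cell, the state taken after injury, 1 rose and 0 fell (0.946% of all genes were called). That gene was Jun, the transcription factor that drives the repair state and is also induced in injured neurons, at 55.6 ± 7.29 CPM in controls and 76.4 ± 8.07 CPM in iKO (SD, n = 6 each, log2 fold change 0.44 ± 0.09 SE, adjusted p = 0.0301). Against tamoxifen-injected controls Jun was at 0.47 ± 0.10 SE (adjusted p = 0.0476) and against corn-oil controls at 0.39 ± 0.14 SE (adjusted p = 0.727). For iKO against all controls 11 of those 17 fold changes were positive, and the list median was 0.14. Of 14 genes of nonmyelinating Schwann cells 0 were called, and the median was -0.01. Gfra3, a GDNF-family receptor also made by nociceptors, had the smallest p there (-0.34 ± 0.12 SE, adjusted p = 0.359).

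In the remaining 4 lists 0 genes were called for iKO against control. Axonal partners of the myelin sheath, 18 genes, had a median of -0.02, with the smallest p for Sptbn4, a spectrin of the node (0.20 ± 0.08 SE, adjusted p = 0.453). The 25 genes of promyelinating signalling had a median of 0.04. Of laminins and dystroglycan partners 20 were tested, with a median of 0.08 and Plec, a cytoskeletal linker, at 0.31 ± 0.11 SE (adjusted p = 0.301). The 12 further genes of demyelinating neuropathy had a median of 0.08. Litaf, an endosomal protein, was at 0.40 ± 0.10 SE (adjusted p = 0.0779) and had 29.6 ± 1.53 CPM in controls and 39.9 ± 7.72 CPM in iKO (SD, n = 6 each).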

How the data were processed

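RNA with poly(A) tails from 12 DRG libraries, 6 iKO and 6 control, was sequenced with a TruSeq kit that keeps no strand information, per the labels' protocols. The submitters' processing notes name bcl2fastq 2.20.0.422, STAR 2.7.8a, featureCounts 2.0.1 and the GRCm39 build. For the annotation release and counting options, the sources used here give nothing. The authors deposited raw counts per gene, 55416 identifiers for each library, with no normalization.

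Identifiers were matched to symbols in an annotation of the older GRCm38 build, which named 52083 (94%) of them, holding 99.67% of counts. That annotation gave exon lengths and overlaps, and RefSeq's table for GRCm38.p6 gave start regions. Groups, replicates, sex and agent came from the labels. Counts were scaled by TMM, filtered by filterByExpr and tested with edgeR 4.0.16 (R 4.3.3), quasi-likelihood, robust, with sex and group as terms and 9 residual degrees of freedom. P-values are 2-sided and adjusted by Benjamini-Hochberg over every gene in the fit, and 0.05 was the threshold. Corn oil against tamoxifen was fitted within the 6 controls with sex as a term (3 residual degrees of freedom). Its fold changes thus set controls 5 and 6 against male controls 3 and 4. The iKO libraries were set against each control kind over all 12 libraries in 3 groups (8). CPM were computed from the deposited counts with TMM-scaled library sizes and are given as mean ± SD. The biological coefficient of variation was 12.8%. The most alike pair of libraries in a group, iKO 5 and iKO 6, still differed by more than sampling noise (chi-square per degree of freedom 3.19), so all 12 were kept as separate samples.

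The members and lists were chosen with earlier results of these data known. Values by library are given for the member of smallest p in each role for iKO against control, the member of smallest p for corn oil against tamoxifen, and Sox10, Egr2, Mbp, Pmp22, Mag and Prx. Of each other list of the wider machinery the called genes, or the gene with the smallest p, are named, save for some that are not reported here. The cell type markers given by level, and single values of other members are named beside that rule. Alternatives were DESeq2 1.42.0, limma-voom (limma 3.58.1), DESeq2's size factors, no filter, no sex term, a replicate block, the sample number series as a term or alone, and each library left out. Of 312 list entries 3 matched no gene. Same-numbered control and iKO libraries did not deviate together, so the replicate numbers were not used as pairs.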

Additional observations from a re-analysis of the deposited data

Results flagged for a closer look

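In groups of 6 libraries a single value can stand apart from the other 5. Among the 60 groups examined, 30 members in control and in iKO, a gap test at the 95% level marked 3, and chance marks about 1 in 20. Itgb4, the integrin subunit of the abaxonal surface, was at 110 CPM in iKO 1 and at 52.9 to 62.4 CPM in the other iKO libraries. Erbb2, the neuregulin receptor kinase, was at 16.2 CPM in iKO 1 and at 10.5 to 11.9 CPM in the others. The first 2 lie in the library that also had the highest fibroblast, macrophage and endothelium scores. S100b was at 603 CPM in iKO 6 and at 532 to 556 CPM in the other iKO libraries.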

How the results depend on the processing

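For iKO against control 0 members were called, and the count was 1, Cadm4, without a filter on low counts (adjusted p = 0.00933, 253 genes called), without iKO 1 (0.0381, 364 genes) and with DESeq2 (0.032, 294 genes). Leaving out 1 library at a time gave 0 to 1 called members and medians of 0.16 to 0.26. For corn-oil against tamoxifen-injected controls 16 were called without the filter, when 32635 genes were tested and 659 called, and 7 with DESeq2 (Mbp, Ncmap, Prx, Drp2, Dag1, Nfasc and Ndrg1), among 193 genes. Without the sex term 0 were called, among 2 genes, and the median was 0.26. Leaving out 1 control gave 0 called and medians of 0.28 to 0.38, and a fit over all 12 libraries in 3 groups, added after seeing the data, a median of 0.31. For iKO against tamoxifen-injected controls 14 were called without the filter, among 927 of 35885 genes, and 6 with DESeq2 (Ncmap, Cldn19, Prx, Dag1, Cadm4 and Fa2h), among 587 genes. Leaving out 1 library gave 0 to 5, and leaving out both iKO 1 and control 3 gave 1 (Prx), among 406 genes. For iKO sample numbers 16 and 17 against 2 to 7, where the sex term leaves iKO 4 alone on the lower side, the median was 0.18 without iKO 1 and 0.07 without the sex term. Leaving out iKO 4 could not be fitted there, since sex and number series then coincide. The DESeq2 and double omission runs for the tamoxifen-injected controls and the number series within iKO were added after seeing the data. Limma-voom called 0 members in the comparisons where it was run. The cause of these differences was not tested.

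The direction of Egr2 for iKO against control turned to -0.06 without control 1 (-0.06 to 0.23 over single omissions), -0.37 in numbers 14 to 17 alone, -0.01 without both iKO 1 and control 3 and -0.02 with the replicate block. That of Erbb2 turned to -0.09 in numbers 14 to 17 alone, and that of Pou3f1 for corn oil against tamoxifen to -0.07 without control 5 (-0.07 to 1.01 over single omissions). With the replicate block the median of the members was 0.16, 0 were called and 79 genes were called over all genes, against 155 without it. Correlations of deviations between same-numbered libraries ran from -0.213 to 0.0382. The control kinds differ in genotype, agent, sex and number series together, and members at a few CPM, such as Pou3f1, rest on few counts.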
